A study of Saccharomyces cerevisiae S288C with 6 samples.

Results

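The 34 genes described here encode subunits of the yeast proteasome, its transcriptional activator RPN4 and the assembly chaperone RPN14. They were chosen by gene symbol (PRE, PUP1 to PUP3, RPT1 to RPT6, RPN and SCL1) from the 5449 Saccharomyces cerevisiae genes that a single-gene probe set measured. Each of the 34 had 1 probe set, and all 34 passed the filter on low signal. They comprised 14 core particle genes, 10 base genes, 8 lid genes, RPN4 and RPN14. The small lid subunit gene SEM1 does not match these symbols and is counted with the associated factors. RNA came from S. cerevisiae S288C, the laboratory reference strain, in synthetic dextrose medium with MOPS buffer. 3 cultures received plakortide F acid (PFA), an antifungal polyketide peroxide of marine sponges, at its IC50 of 0.62 ug/ml, and 3 received the solvent, 0.25% DMSO. Cells were treated at an optical density of 0.2 and collected at 0.5. Neither the time this took nor the DMSO content of the PFA cultures is given in the sources used here, so effects of the compound, of the solvent and of a different time in culture cannot be told apart.

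The proteasome degrades proteins that carry a chain of ubiquitin. Its core particle is a barrel of stacked rings: alpha rings form the gate at each end, and beta rings enclose the protease sites. A regulatory particle caps the barrel. The base of this cap holds a ring of ATPases that unfold substrates and thread them in, and the lid removes the ubiquitin. Yeast produces the subunits under the control of Rpn4, a short-lived activator that is itself degraded by the proteasome, so that Rpn4 accumulates when proteasome capacity falls short.

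Each culture was measured on 1 Affymetrix array, as a signal intensity on a linear scale that the authors had brought to a common level. Across the 5356 genes tested, which are not independent replicates, the correlation of arrays of the same group was 0.991 to 0.994 and that of DMSO with PFA arrays 0.923 to 0.929. The background level, taken from probe sets for another organism, was a signal of 20.01, and the mean DMSO signals of the 34 genes ran from 769 to 7861. S288C is of alpha mating type, and the alpha-cell genes MF(ALPHA)1, MF(ALPHA)2, STE3 and SAG1 gave DMSO signals of 6580.2 to 18521. The a-cell genes MFA1, MFA2 and STE2 gave 148 to 659 there, also above background. All 7 of these markers were lower in PFA. Of the alpha-cell genes, MF(ALPHA)2 fell 109-fold, SAG1 17.3-fold, STE3 3.03-fold and MF(ALPHA)1 1.37-fold, the last to a mean PFA signal of 13023. Of the a-cell genes, MFA1 fell 8.7-fold, STE2 4.75-fold and MFA2 1.63-fold. The check of mating type was made on the DMSO arrays, and a part of these changes in the proteasome results was not tested. The 6 arrays limit the precision of every value.

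The study compared PFA with DMSO to find the transcripts that change under growth inhibition by the compound. Among the proteasome genes, 18 of 34 rose in PFA, 1 fell and 15 did not pass the test. The test was limma, with a Benjamini-Hochberg adjusted p under 0.05 over all genes tested. This count became 12 higher and 3 lower after centring each array on its median, and 18 and 3 after quantile normalization. Over all genes, 1622 were higher and 1701 lower. These became 1426 and 1971 after median centring and 1513 and 1783 after quantile normalization. Most rises of the proteasome genes were small: 16 of the 18 were under 1.5-fold, and the smallest was 1.1-fold. RPN4 and RPN2 alone rose by at least 1.5-fold. In a bulk culture, a change in every cell and a larger change in some of the cells cannot be told apart.

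These counts stand against a response that touched much of the genome. Of 5356 genes tested, 62.0% changed, 30.3% upward and 31.8% downward, whereas 52.9% of the proteasome genes rose and 2.94% fell. Rises of at least 1.5-fold were found for 13.3% of all genes and for 2 of the 34. Their median log2 change was 0.15, with quartiles of 0.01 and 0.27, beside a median of -0.02 and quartiles of -0.32 and 0.33 over all genes. The log2 changes lay above 0 in 76.5% of the proteasome genes and in 48.3% of all genes. These shares are descriptions, and no test of the group as a whole was made.

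**Figure D1:**
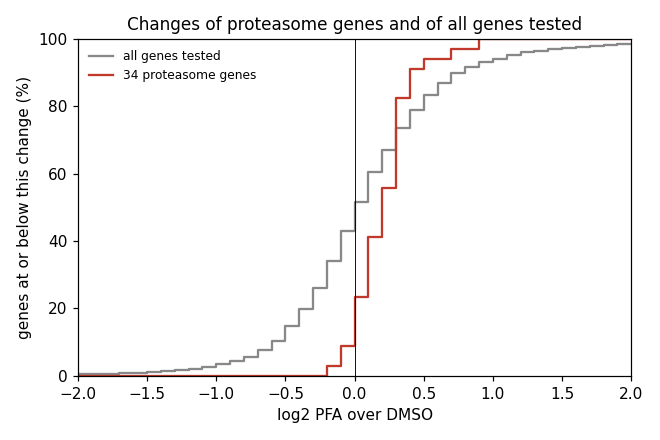
Cumulative percentage of genes (vertical axis, %) at or below each log2 change of PFA over DMSO (horizontal axis), in steps of 0.1, for the 34 proteasome genes and for all 5356 genes tested. The proteasome curve is steep and lies to the right of 0 for 76.5% of its genes, with none below a log2 change of -0.3, where 26.1% of all genes lie.

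RPN4 (YDL020C), the activator gene, showed the largest change of the 34. Its signals on DMSO replicates 1, 2 and 3 were 1458, 1357 and 1540.2, and on the PFA replicates 2633, 2629 and 2854. Every PFA value lay well above every DMSO value, and the 3 values of a group lay close together. The mean went from 1452 ± 91.9 to 2705 ± 129 (SD, n = 3), a 1.86-fold rise with a log2 change of 0.90 ± 0.08 (SE, limma adjusted p = 9.01e-07). Over all genes tested, 7.0% had a higher log2 change than RPN4. With each array left out in turn its log2 change ran from 0.85 to 0.94.

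RPN14 (YGL004C) carries the same gene name prefix but encodes a chaperone that helps to assemble the base and leaves before the particle is complete. Its DMSO signals were 752, 802 and 753 and its PFA signals 881, 844 and 831. The groups did not overlap, but the log2 change of 0.15 ± 0.08 (SE) did not pass the test (limma adjusted p = 0.115). Groups in which all PFA arrays were above all DMSO arrays were found for 32.4% of genes tested and for 19 of the 34, and the reverse order for 34.2% and for 3 of the 34.

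**Figure D2:**
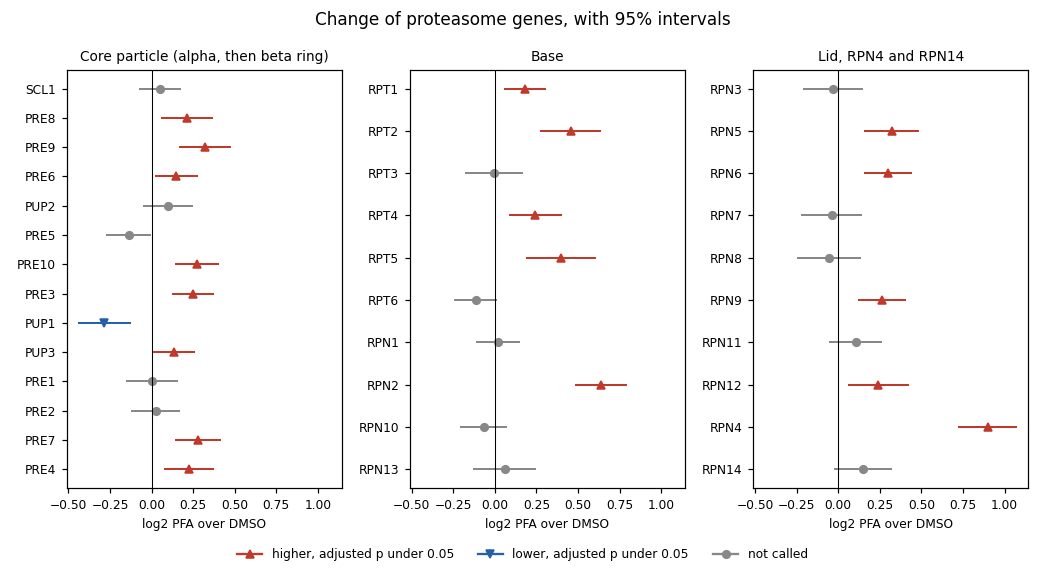
Log2 change of PFA over DMSO (horizontal axis) for each of the 34 genes, with 95% intervals from the limma fit that are not adjusted for the number of genes. Upward triangles mark the 18 genes that rose and the downward triangle PUP1, the single gene that fell. Grey circles mark the 15 that did not pass the test. After centring arrays on the median, 12 were higher and 3 lower, beside 1426 and 1971 of all genes.

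Of the 14 core particle genes, 8 (57.1%) were higher, 1 (7.14%) lower and 5 not called. Over all genes, 30.3% were higher and 31.8% lower. The median log2 change of the core particle genes was 0.14, beside -0.02 for all genes. After median centring it was 0.08, beside -0.08 for all genes. In the alpha ring 4 of 7 (57.1%) rose. PRE9 (YGR135W), the alpha subunit gene that yeast can do without, had the largest change there. Its DMSO signals were 6737, 6687 and 6277 and its PFA signals 8587, 8653 and 7425, so that PFA replicate 3 was the lowest of the treated arrays but still above all controls. The rise was 1.25-fold (log2 change 0.32 ± 0.07, SE, limma adjusted p = 0.00128). PRE10 rose 1.21-fold, from 6278 ± 299 to 7575 ± 142 (SD, n = 3). PRE8 rose 1.16-fold and PRE6 1.11-fold, and both calls were sensitive to single arrays. PRE8 was lost without DMSO replicate 2 or 3 or PFA replicate 1 or 2 (adjusted p of 0.0637 to 0.078), and PRE6 without any array but PFA replicate 3 (0.0649 to 0.131). Both were also lost after median centring, and PRE6 without the variance trend (limma adjusted p = 0.0887).

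The other alpha subunit genes were SCL1, PUP2 and PRE5. The log2 change of SCL1 was 0.05 ± 0.06 (SE, limma adjusted p = 0.452) and that of PUP2 0.10 ± 0.07 (SE, limma adjusted p = 0.215). PUP2 gave DMSO signals of 6427, 6772 and 6383 and PFA signals of 7332, 7298 and 6373, so PFA replicate 3 lay with the controls. Without that array PUP2 passed the test, at a log2 change of 0.16 (adjusted p = 0.0257). PRE5 gave 5251, 5421 and 5304 in DMSO and 5023, 4779 and 4722 in PFA. Its PFA values were all below its DMSO values, yet the log2 change of -0.14 ± 0.06 (SE) did not pass (adjusted p = 0.0599), and it passed as lower after quantile normalization (0.0373) and after median centring (0.0113).

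Of the beta ring genes 4 of 7 (57.1%, beside 30.3% of all genes) rose, 1 (14.3%, beside 31.8%) fell and 2 were not called. The protease sites lie in the products of 3 of them, and these differed. PRE3 (YJL001W), whose product cuts after acidic residues, gave DMSO signals of 5964, 6230.3 and 6232 and PFA signals of 7549, 7291 and 7081. All PFA arrays were above the controls, a 1.19-fold rise (log2 change 0.25 ± 0.06, SE, limma adjusted p = 0.00181). PUP1 (YOR157C), which encodes the trypsin-like site, gave 6458, 5959 and 5454 in DMSO and 4937, 5004 and 4718 in PFA. All PFA arrays were below the controls, so that PUP1 was 1.22-fold lower (log2 change -0.28 ± 0.07, SE, limma adjusted p = 0.00378), the only gene of the 34 to fall, apart from PRE5 and RPT6 after quantile normalization or median centring. PRE2 (YPR103W), which encodes the chymotrypsin-like site, gave 6803, 6993 and 6101 in DMSO and 6704, 6565 and 6930.4 in PFA. These groups overlapped, with a log2 change of 0.02 and a 95% interval of -0.12 to 0.16 (adjusted p = 0.762).

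Compared within arrays, which removes array-wide scaling, the log2 ratio of PRE3 to PUP1 was higher in PFA than in DMSO by 0.53, that of PRE2 to PUP1 by 0.31 and that of PRE3 to PRE2 by 0.23. The PFA arrays were all above the DMSO arrays for each pair. For PRE3 to PUP1 this had to follow, as PRE3 lay above and PUP1 below its controls on every PFA array. For PRE3 to PRE2 the separation held by almost nothing: the log2 ratio was 0.031 on both DMSO replicate 3 and PFA replicate 3 after rounding. For these 3 pairs the exact two-sided permutation p was 0.1, also after adjustment over the pairs, which is the smallest that 3 against 3 arrays can give, so this test could not pass the threshold.

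Beta subunits without a protease site were PUP3, PRE1, PRE7 and PRE4. PRE7 rose 1.21-fold, from 4748 ± 121 to 5762 ± 241 (SD, n = 3), and PRE4 1.17-fold, from 5505 ± 105 to 6441 ± 475 (SD, n = 3). The PRE4 call was lost without PFA replicate 2 (adjusted p = 0.0537) and after median centring. PUP3 rose 1.1-fold at a limma adjusted p of 0.0487, close to the threshold, and the call was lost without any array but PFA replicate 3 (0.0556 to 0.147), without the variance trend (0.095) and after median centring (0.279, log2 change 0.07). PRE1 gave 5881 ± 391 in DMSO and 5886 ± 333 in PFA (SD, n = 3), a log2 change of 0.00 with a 95% interval of -0.15 to 0.15.

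**Figure D3:**
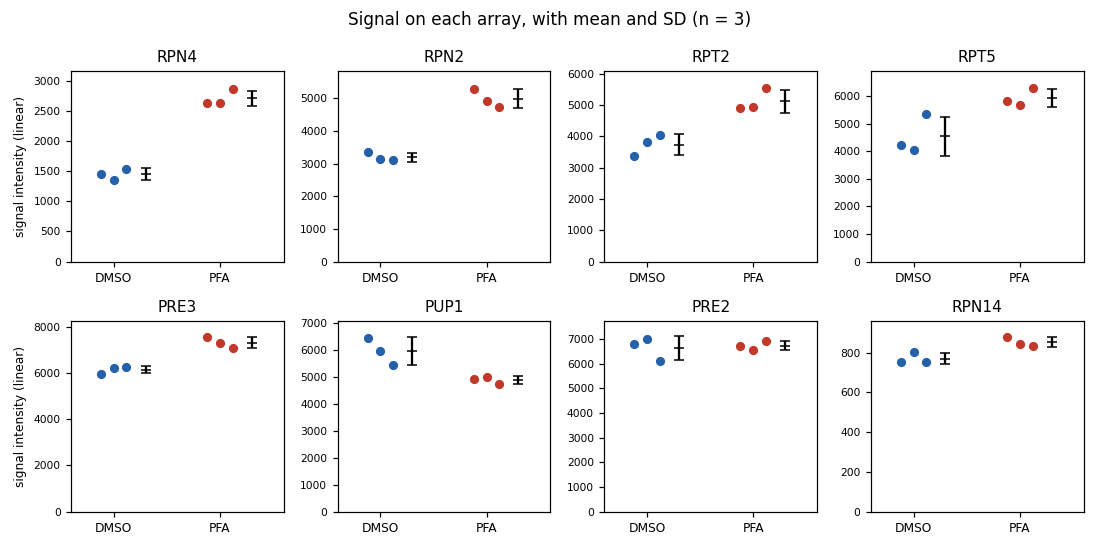
Signal intensity (linear scale, from 0) on each array for 8 of the genes, with DMSO in blue, PFA in red and the mean ± SD (n = 3) as black bars beside the points; replicates 1 to 3 run from left to right in a group. RPN4 and RPN2 separate most widely, PRE3 and PUP1 separate in opposite directions, the PRE2 groups overlap, and RPN14 did not pass the test although its groups are apart.

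In the base, 5 of 10 genes rose and 5 were not called by limma. Their median log2 change was 0.12 (0.06 after median centring, beside -0.08 for all genes). The number that fell was 0, beside 31.8% of all genes, and also 0 at an unadjusted p under 0.05. However, RPT6 was called lower after quantile normalization and after median centring. RPN2 (YIL075C), a large scaffold subunit that holds a ubiquitin receptor and contacts the lid, had the largest change of any subunit. Its DMSO signals were 3358, 3139.5 and 3104 and its PFA signals 5298, 4926 and 4743. The groups lay far apart, and RPN2 rose 1.56-fold (log2 change 0.64 ± 0.07, SE, limma adjusted p = 5.97e-06). RPN1 (YHR027C), the related scaffold that receives shuttle proteins, gave 8257, 7957 and 7369.8 in DMSO and 8129.9, 7951 and 7786 in PFA. Its groups overlapped, with a log2 change of 0.02 and a 95% interval of -0.11 to 0.14, beside 0.49 to 0.79 for RPN2. The difference between the changes of RPN1 and RPN2 was not tested. The ubiquitin receptor genes RPN10 (log2 change -0.07 ± 0.06, SE, adjusted p = 0.362) and RPN13 (0.06 ± 0.08, SE, adjusted p = 0.568) did not pass the limma test.

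Of the 6 ATPase genes, 4 (66.7%, beside 30.3% of all genes) rose and RPT3 and RPT6 were not called. RPT2 (YDL007W), whose product helps to open the gate of the core particle, gave 3365, 3811 and 4026 in DMSO and 4886, 4922 and 5530.4 in PFA, a 1.37-fold rise (log2 change 0.46 ± 0.08, SE, limma adjusted p = 0.000353). RPT5, also a gate-opening ATPase, gave 4239, 4046 and 5342 in DMSO and 5838, 5678 and 6293 in PFA. DMSO replicate 3 was high for RPT5 but below all PFA arrays, and the rise was 1.32-fold (adjusted p = 0.00287). RPT4 rose 1.18-fold and RPT1 1.13-fold, the latter lost after median centring (adjusted p = 0.0796). RPT3 gave 4304 ± 438 in DMSO and 4281 ± 82.4 in PFA (SD, n = 3), with a 95% interval of -0.17 to 0.16 for its log2 change. RPT6 (YGL048C) gave 5529, 5602 and 5712 in DMSO and 5155, 5125 and 5280.1 in PFA. Its PFA values were all lower, but the log2 change of -0.11 ± 0.06 (SE) did not pass the limma test (adjusted p = 0.0974); it passed after quantile normalization (0.0438) and median centring (0.0171).

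Of the 8 lid genes chosen by symbol, which leave out SEM1, 4 were higher and 4 not called by limma. Their median log2 change was 0.17 (0.11 after median centring, beside -0.08 for all genes). The number that fell was 0, beside 31.8% of all genes, and also 0 at an unadjusted p under 0.05. Those that rose all encode scaffold subunits of the lid, as do RPN3 and RPN7, which were not called. RPN5 (YDL147W) gave 4798, 4973 and 5271 in DMSO and 5754, 6209 and 6869 in PFA, a 1.25-fold rise (log2 change 0.32 ± 0.07, SE, limma adjusted p = 0.00212). RPN6, whose product clamps the lid to the core particle, rose 1.23-fold, from 4992 ± 317 to 6129.9 ± 135 (SD, n = 3), and RPN9 1.2-fold, from 3927 ± 172 to 4711 ± 168 (SD, n = 3). RPN12 gave 3259, 3260.2 and 3280.2 in DMSO and 4174, 4045 and 3409 in PFA. Its 1.18-fold rise was carried mostly by PFA replicates 1 and 2, and the call was lost without either of them or without DMSO replicate 2 (adjusted p of 0.0572 to 0.0995) and after median centring.

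The deubiquitinase of the lid is encoded by RPN11 and its inactive partner by RPN8. RPN11 gave 4058 ± 201 in DMSO and 4367 ± 280 in PFA (SD, n = 3), a log2 change of 0.10 ± 0.07 (SE, limma adjusted p = 0.219). For RPN8 the log2 change was -0.05 ± 0.09 (SE, limma adjusted p = 0.61). The scaffold genes RPN7 and RPN3 had log2 changes of -0.04 and -0.03. For RPN8, DMSO replicate 1 was at 4368 and the other controls at 5309.6 and 5267, and for RPN7 it was at 4813 against 5949.5 and 5833. Over the 15 genes of the 34 that were not called, the 95% intervals of the log2 change lay between -0.27 and 0.32.

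On single arrays the subunits of a part sometimes deviated together. DMSO replicate 1 held the lowest control signal for 7 of 8 lid genes, but for 6 of 14 core and 5 of 10 base genes. PFA replicate 3 held the lowest treated signal for 12 of 14 core genes, but for 5 of 10 base and 3 of 8 lid genes. Over all genes tested, these arrays held the lowest of their group for 37.4% and 35.5%. The median log2 signal of the core genes relative to their DMSO means was 0.18 on PFA replicates 1 and 2 and 0.07 on replicate 3. For the lid it was -0.08, 0.02 and 0.07 on the DMSO replicates and 0.18, 0.19 and 0.03 on the PFA replicates, so PFA replicate 3 lay within the controls. For the base it was -0.04, -0.02 and 0.05 in DMSO and 0.17, 0.11 and 0.11 in PFA, with no overlap. The array median of all genes ranged from -0.03 to 0.00, and a part of array quality or culture in these shifts was not tested. Without PFA replicate 3, 19 of the 34 genes rose and the core median was 0.18, and without DMSO replicate 1, 16 rose and the lid median was 0.19. Among the fits with an array left out, the fewest rises, 13, were found without PFA replicate 2. Over all genes, 1571 rose without PFA replicate 3, 1565 without DMSO replicate 1 and 1491 without PFA replicate 2. With all arrays 1622 rose.

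**Figure D4:**
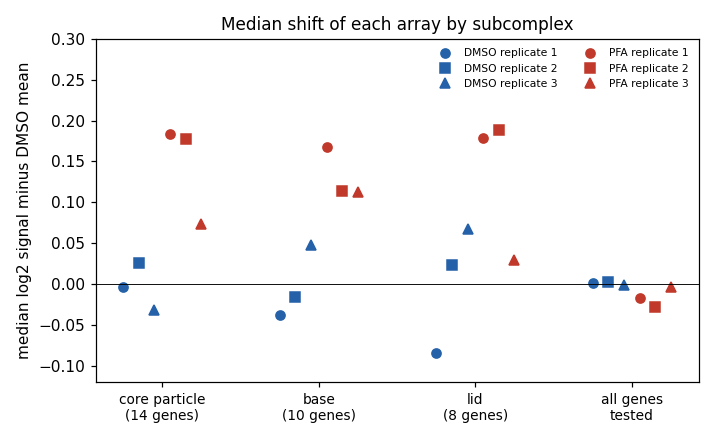
Median over genes of the log2 signal minus the gene's DMSO mean (vertical axis) on each array, for the core particle, the base, the lid and all genes tested; blue is DMSO, red is PFA and the symbol gives the replicate. PFA arrays lie above DMSO arrays for the core and the base, while PFA replicate 3 lies within the DMSO arrays for the lid and all arrays lie near 0 for all genes.

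The proteasome is built with the help of dedicated chaperones and works with loosely bound partners. Of 15 such assembly and associated factors, 7 (46.7%) rose, 3 (20.0%) fell and 5 were not called, beside 30.3% higher and 31.8% lower over all genes, with a median log2 change of 0.21. The 3 that fell encode chaperones of the alpha ring. POC4 (YPL144W) gave 1898, 1840.0 and 1670.2 in DMSO and 1104, 1139 and 1143 in PFA, 1.59-fold lower (log2 change -0.67 ± 0.08, SE, limma adjusted p = 1.14e-05). IRC25, whose product forms a dimer with that of POC4, was 1.37-fold lower, from 1052 ± 61.5 to 769.9 ± 55.4 (SD, n = 3). ADD66 was 1.2-fold lower (limma adjusted p = 0.00767), while its dimer partner PBA1 was not called (log2 change 0.08 ± 0.08, SE, limma adjusted p = 0.431).

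Of the chaperones of the base, TMA17 and NAS2 rose. TMA17 (YDL110C), a stress-induced chaperone for an ATPase pair, gave 1271, 1017 and 909 in DMSO and 1956, 2177 and 1788 in PFA, a 1.86-fold rise (limma adjusted p = 3.14e-05). NAS2 rose 1.67-fold, from 711 ± 74.2 to 1187 ± 93.9 (SD, n = 3). NAS6 and HSM3 had log2 changes of 0.01 ± 0.08 and -0.14 ± 0.11 (SE), neither of which passed the test. HSM3 passed as lower without DMSO replicate 1 (adjusted p = 0.0215). UMP1, whose product helps the core particle mature and is its first substrate, rose 1.21-fold (limma adjusted p = 0.00829).

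Among the partners, SPG5 (YMR191W), needed for proteasome function in stationary phase, changed most. Its signals were 1474, 1731 and 1755 in DMSO and 6150.0, 5613 and 5434 in PFA, a 3.47-fold rise (log2 change 1.80 ± 0.09, SE, limma adjusted p = 3.33e-09). ECM29, which tethers the core to its cap, rose 1.6-fold, from 728 ± 32.5 to 1166 ± 106 (SD, n = 3). BLM10, an alternative cap, and HUL5, a ubiquitin ligase that extends chains at the proteasome, each rose 1.24-fold. The deubiquitinase gene UBP6 (log2 change 0.21 ± 0.11, SE) and the small lid subunit gene SEM1 (0.15 ± 0.10, SE) were not called. UBP6 gave 2721, 2754 and 3680.3 in PFA and its log2 change was 0.07 without PFA replicate 3. SEM1 gave 4587, 4441 and 3438 in PFA and passed as higher without PFA replicate 3 (adjusted p = 0.00542).

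Proteins are delivered to the proteasome by ubiquitin enzymes, shuttles and the unfoldase Cdc48. Of 31 genes of these kinds 14 (45.2%, beside 30.3% of all genes) rose and 17 were not called, with a median log2 change of 0.19. The number that fell in limma was 0, beside 31.8% of all genes, with 1 at an unadjusted p under 0.05. After median centring 12 were higher and 3 lower, beside 1426 and 1971 of all genes. Quantile normalization gave 15 and 1, beside 1513 and 1783. UBC5 (YDR059C), a stress-related ubiquitin-conjugating enzyme, gave 951, 853 and 814 in DMSO and 3693, 4105 and 3550.1 in PFA, a 4.34-fold rise (log2 change 2.12 ± 0.09, SE, limma adjusted p = 8.55e-10). Its close paralog UBC4 gave 12200.1 ± 169 in DMSO and 12003 ± 1280 in PFA (SD, n = 3), with a log2 change of -0.03 ± 0.07 (SE, adjusted p = 0.726). Signal can be shared between such similar sequences, so how much of either value belongs to the other gene is uncertain.

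UBI4 (YLL039C), the stress-induced gene of ubiquitin repeats, gave 2589, 2437 and 3045 in DMSO and 8779, 8076 and 8738 in PFA, a 3.18-fold rise (limma adjusted p = 5.16e-09). Other ubiquitin genes hold similar repeats, so the source of this signal is uncertain in the same way. UBC8, which serves the degradation of gluconeogenic enzymes, rose 1.66-fold, DOA1, a Cdc48 partner, 1.48-fold and DOA4, which recycles ubiquitin, 1.45-fold. UBA1, the ubiquitin-activating enzyme gene, rose 1.37-fold, from 4416 ± 183 to 6065 ± 27.8 (SD, n = 3). CDC48 itself (log2 change 0.06 ± 0.05, SE) and the shuttle genes RAD23 (-0.01 ± 0.08, SE), DSK2 (-0.10 ± 0.06, SE) and DDI1 (0.17 ± 0.09, SE) did not pass the test. DSK2 was lower after median centring (adjusted p = 0.0319) and CDC48 higher after quantile normalization (adjusted p = 0.00782). The calls for UBC1 and TOM1, 2 of the 14, were lost without DMSO replicate 3. UBC1 was lost without PFA replicate 2 too, and TOM1 without DMSO replicate 2 or PFA replicate 1. Both were lost after median centring, and TOM1 without the variance trend.

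**Figure D5:**
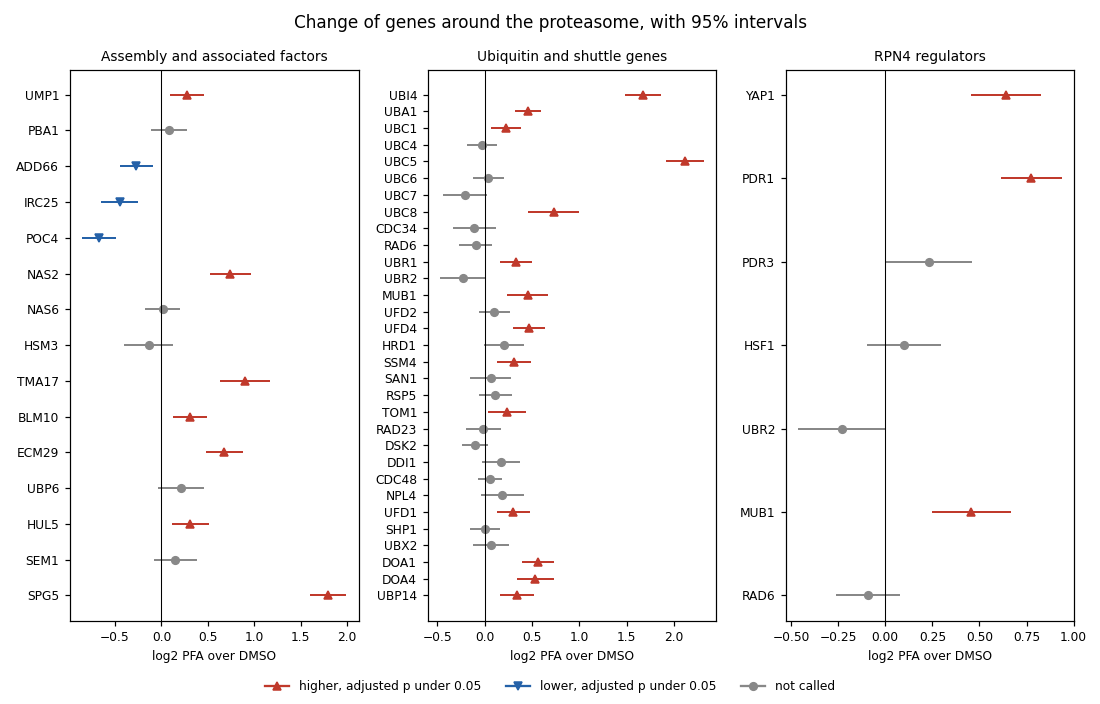
Log2 change of PFA over DMSO (horizontal axes, which differ in range) with unadjusted 95% intervals for 15 assembly and associated factors, 31 ubiquitin and shuttle genes and 7 RPN4 regulators. SPG5, UBI4 and UBC5 lie farthest to the right, and the alpha ring chaperone genes ADD66, IRC25 and POC4 lie to the left of 0.

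RPN4 is transcribed under Yap1, Pdr1, Pdr3 and Hsf1, and the Rpn4 protein is marked for destruction by Ubr2 with Mub1 and Rad6. Of these 7 genes 3 (42.9%, beside 30.3% of all genes) rose and 4 were not called. The number that fell in limma was 0, with 1, UBR2, at an unadjusted p under 0.05, and UBR2 was called lower after quantile normalization, after median centring and without the variance trend. PDR1 (YGL013C), a regulator of drug resistance, gave 1342, 1385 and 1287 in DMSO and 2317, 2229 and 2325 in PFA, a 1.71-fold rise (log2 change 0.78 ± 0.07, SE, limma adjusted p = 1.72e-06). YAP1, the activator of oxidative stress genes, gave 994, 1118 and 1079 in DMSO and 1585, 1610.5 and 1786 in PFA, a 1.56-fold rise (limma adjusted p = 2.77e-05). The groups of both genes were far apart. For PDR3 the log2 change was 0.23 ± 0.10 (SE, limma adjusted p = 0.0666), which passed without PFA replicate 3 and without the variance trend, and HSF1 one of 0.10 ± 0.09 (SE, limma adjusted p = 0.35).

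Of the turnover genes, which also belong to the ubiquitin genes above, MUB1 rose 1.37-fold, from 385 ± 36.4 to 527 ± 6.32 (SD, n = 3). UBR2 gave 262, 281 and 261 in DMSO and 229, 229.5 and 226 in PFA. All its PFA values were below its DMSO values, with a log2 change of -0.23 ± 0.10 (SE, limma adjusted p = 0.0728). The log2 change of RAD6 was -0.09 ± 0.08 (SE, limma adjusted p = 0.312). These are transcript levels, and the amount of the Rpn4 protein was not measured.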

How the data were processed

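The authors deposited 1 linear signal intensity for each probe set of 6 single-colour Affymetrix arrays, hybridized with biotin-labelled cRNA, per the labels. The software was GCOS 1.1, per the submitters' processing notes. How probes were summarised and background removed is not given in the sources used here. After dropping 2% of probe sets at either end, every deposited array had a mean intensity of 1001, so no scaling was added, and a shift of all transcripts would not be seen. Sample titles gave the groups and the numbers of the replicates, which they describe as biological. The p-values set the difference of the group means against the spread among these samples, moderated by a variance trend over all genes tested.

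Of 10928 probe sets, 5498 matched a single S. cerevisiae gene through the platform annotation and RefSeq's gene table for assembly R64, covering 5449 genes. As background served the mean log2 signals of the 1746 probe sets named for another organism, at their 95th percentile (a signal of 20.01). Genes above it were tested, each by its brightest probe set. The log2 was taken without a pseudocount, and PFA was compared with DMSO with limma 3.58.1 under R 4.3.3 (two-sided moderated test from lmFit and trended eBayes; Benjamini-Hochberg adjustment over 5356 genes; threshold 0.05). Folds are ratios of geometric means. Figures were drawn with matplotlib 3.10.9. The fit was tested on simulated data.

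The members, the gene lists and the rule for naming genes (all members, and up to 5 changed genes of a list with any others the text needed) were chosen with earlier results of these data known. The planned search of promoters for Rpn4 and other sites was not run, because no sequence was used here.

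Same-numbered PFA and DMSO arrays did not deviate together (correlations of -0.05, -0.09 and 0.16 across genes for replicates 1, 2 and 3), so the numbers were not taken as pairs.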

Additional observations from a re-analysis of the deposited data

How the results depend on the processing

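The log2 change of each gene of the 34 and of the 3 lists around them, the counts of calls and the medians by subcomplex were recomputed under 15 alternatives, except that the stricter filter removed RPN14 and some genes of the lists. The within-array ratios, the 1.5-fold counts, the counts of groups that did not overlap, the array medians and the mating-type markers were not. No gene of the 34 or of these lists reversed its direction in a call. Of the 19 proteasome genes called, 13 kept their call under all 15: RPN4, RPN2, RPT2, RPT4, RPT5, RPN5, RPN6, RPN9, PRE3, PRE7, PRE9, PRE10 and PUP1. The other 6, PRE4, PRE6, PRE8, PUP3, RPN12 and RPT1, lost it under median centring or more, and 3 uncalled genes, PRE5, RPT6 and PUP2, passed under some. Centring each array on its median gave 12 proteasome genes higher and 3 lower, 80.0% of calls upward in place of 94.7%. Over all genes it gave 1426 higher and 1971 lower, in place of 1622 and 1701. It also gave 3 lower ubiquitin and shuttle genes and 1 lower RPN4 regulator. It moved the median log2 change of the core to 0.08 and of the base to 0.059, and that of the lid was 0.11. The median of all genes moved too, from -0.019 to -0.081. Quantile normalization gave 3 lower proteasome genes, 1 lower ubiquitin gene and 1 lower RPN4 regulator, both UBR2. A stricter filter, at the median signal of yeast probe sets, tested fewer genes and left 1893 called, with 4 assembly factors higher. Without the variance trend, 16 proteasome genes rose and 1 fell, as PRE6 (limma adjusted p = 0.0887) and PUP3 (0.095) were lost. Over all genes 1595 were higher and 1620 lower. Under this setting 1 ubiquitin gene and 1 RPN4 regulator, again UBR2, were lower. With same-numbered arrays as a replicate block, 17 proteasome genes rose (PUP3 was lost, adjusted p = 0.0541) and 1 fell, UBP6 passed as higher (adjusted p = 0.0376), 3366 of all genes changed and 1 ubiquitin gene, UBC7, was lower. Leaving out each array gave 13 to 19 proteasome genes higher and 1 lower, and 2962 to 3265 genes called in all. Pseudocounts of 16 and 64, no filter and the mean of all probe sets left 18 proteasome genes higher and 1 lower. These settings could hardly change the values of the 34 genes, which have 1 probe set each and lie far above background. The lowest mean DMSO signal of the 34 genes, 769, lay far above the background of 20.01.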
